A study of Danio rerio with 16 samples.

Results

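The genes described here were the claudins, occludins, junctional adhesion molecules and zonula occludens scaffolds of the zebrafish testis. A row of a count table was taken when its RefSeq accession mapped to a symbol that begins with cldn, ocln, tjp and a digit, jam2 or jam3, or f11r. There were 45 such genes among the 17251 accessions of the tables: 35 claudins, 6 junctional adhesion molecules (JAMs), 2 occludins and 2 scaffolds. The 2 bulk-seq tables each held 44 of them, and the pseudo bulk-seq table held 9. In the RefSeq annotation 61 symbols fit the rule, and the 16 without a row, tjp1a, tjp1b and tjp2b among them, were not analysed here.

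Tight junctions seal the space between neighbouring cells of an epithelium. Claudins form the paired strands of the seal, occludin and the JAMs lie alongside them in the membrane, and the zonula occludens proteins tie the strands to actin inside the cell. In the testis the Sertoli cells, which nurse the germ cells, build such junctions with one another, and this blood-testis barrier shields the later germ cells from blood. In mice claudin 11 is needed for that barrier, while in fish it is formed by the Sertoli cells that enclose each cyst of germ cells.

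All fish were AB strain males. Control testes of 1-year-old fish were sequenced intact (CI, n = 3) or after dissociation (CD, n = 3), with 1 testis of a fish left whole and its partner dissociated. Dissociated testes of 1.5-year-old fish came from control (n = 3) or TCDD-exposed (n = 2) males, and each suspension was split between bulk-seq (CB, TB) and single cell sequencing summed to pseudo bulk-seq (CP, TP). TCDD is 2,3,7,8-tetrachlorodibenzo-p-dioxin, given in the water at 50 pg/ml during 1 h baths, first at 3 weeks and again at 7 weeks after fertilization. Controls, CI and CD included, were bathed in the 0.1% DMSO vehicle instead; their labels write 50 pg/ml before the DMSO but name no TCDD. Dissociation joined mincing, collagenase digestion and removal of dead cells, and the intact testes were instead kept in RNALater, so these steps cannot be told apart in CDxCI.

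The CD and CI libraries held between 7968350 and 29144951 counts, the CB and TB libraries between 4828801 and 36172885, and the CP and TP samples between 3490409 and 9987998. Levels are CPM, counts scaled to a common library size by edgeR's TMM factors within each table. The columns of TBxCB are named like the labels of the single cell samples, and were taken as bulk-seq from the name of the table and the library depth. They could not be tied to single bulk-seq samples, so these libraries are told apart by depth, and the deeper TB library is given first. All libraries carried germ cell transcripts, with 10 spermatocyte markers (8 with a row) summing to between 4400 and 6560 CPM in CDxCI. CI replicate 2 and the shallower TB library stood apart from the rest of their tables on the first principal component, at 96.0 against -52.8 to 12.7 and at 115.2 against -32.3 to -20.1. Results of tight junction genes that rested on either are also given without it. Genes of the marker and other junction lists were not refitted without single libraries.

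Dissociated and intact control testes (CDxCI) were compared to ask what taking the tissue apart does to junction transcripts. Of the 44 genes, 38 passed the filter on low counts, and 4 of the 38 were lower in CD by edgeR's quasi-likelihood test at an adjusted p under 0.05 (cldn11a, cldn3d, cldn7a and jam2a), while 0 were higher, by edgeR or by DESeq2. Over all 12773 rows tested 1.96% were called lower and 0.258% higher. The median log2 fold change of the 38 genes was 0.04, against 0.01 over all rows. The middle of the family thus lay near that of all rows, with 4 single genes well below it.

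**Figure D1:**
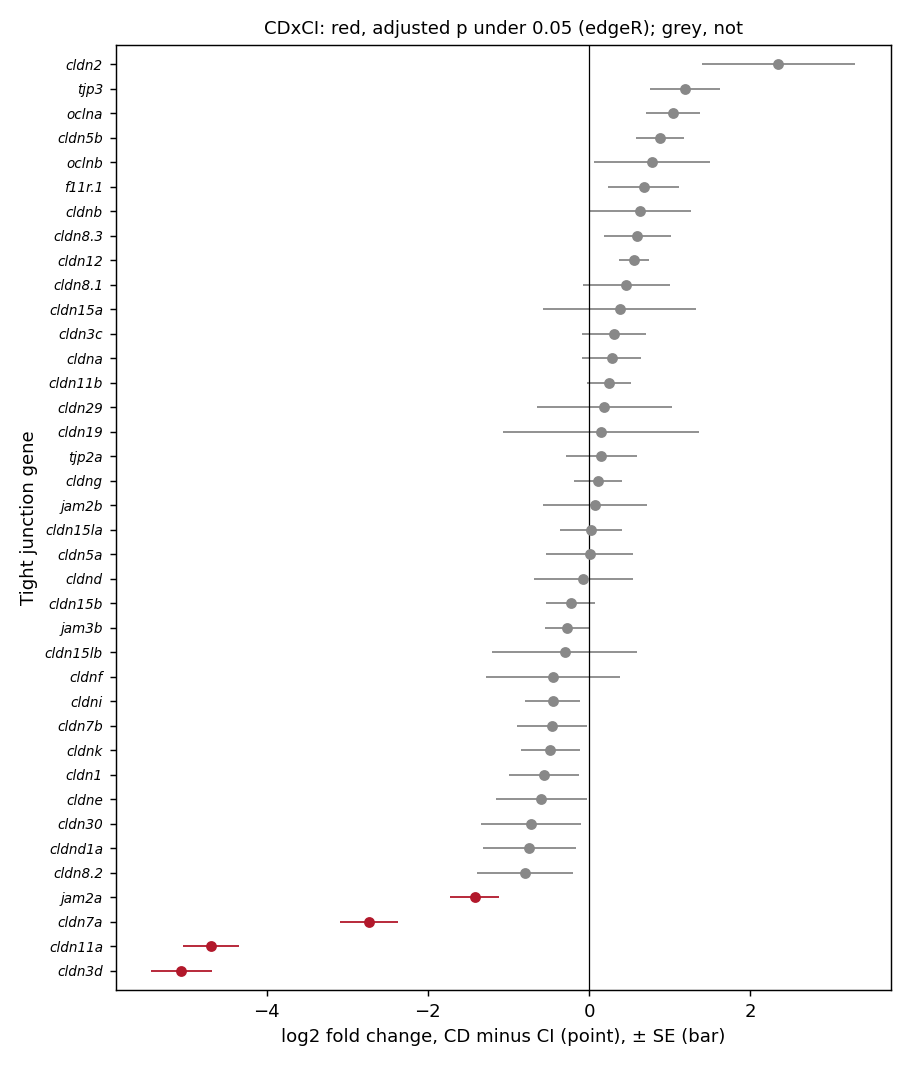
Log2 fold change of each of the 38 tight junction genes tested in CDxCI (x axis, CD minus CI; points, edgeR estimate; bars, SE; 3 libraries a group). The 4 red points, at -5.06, -4.69, -2.73 and -1.42, have an adjusted p under 0.05, and the 34 grey points run from -0.79 to 2.35.

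The claudin cldn11a is 1 of the 2 zebrafish relatives of claudin 11. Its level was 104, 201 and 175 CPM in the CI libraries and 8.71, 4.94 and 4.83 CPM in the CD libraries. Every intact library lay above every dissociated one, by more than 10 times. Its mean was 25.9-fold lower in CD (log2 fold change -4.69, SE 0.349, edgeR adjusted p = 8.89e-05), and the call held without each library in turn (log2 fold changes -5.03 to -4.50).

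In mice claudin 3 is another claudin of the Sertoli cell barrier. Its zebrafish relative cldn3d was at 20.4, 31.9 and 25.6 CPM in CI and at 1.02, 0.766 and 0.512 CPM in CD. This was the lowest fold change of the family, a level 33.4-fold lower in CD (log2 fold change -5.06, SE 0.377, edgeR adjusted p = 8.89e-05). Leaving out single libraries gave -5.32 to -4.85, with the call kept each time.

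The epithelial claudin cldn7a was at 20.9, 16.8 and 20.2 CPM in CI and at 1.86, 4.26 and 2.65 CPM in CD. Its groups did not overlap, and its level was 6.62-fold lower in CD (log2 fold change -2.73, SE 0.362, edgeR adjusted p = 0.00289). That call was also kept without any single library (-3.10 to -2.48).

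Among the JAMs, immunoglobulin-like adhesion proteins of the junction, jam2a was at 39.1, 32.9 and 24.7 CPM in CI and at 10.4, 16.5 and 9.22 CPM in CD. Its zebrafish protein is best known for pairing with the product of jam3b when muscle cells fuse. The level was 2.67-fold lower in CD (log2 fold change -1.42, SE 0.303, edgeR adjusted p = 0.0382). This call was the least firm of the 4: it was lost without CD replicate 1 (-1.32, adjusted p = 0.186), CD replicate 3 (-1.27, adjusted p = 0.199), CI replicate 1 (-1.25, adjusted p = 0.11) or CI replicate 3 (-1.58, adjusted p = 0.0545).

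Each of the 4 genes has a paralogue of the same name stem that did not pass the test. The second claudin 11 gene, cldn11b, was at 8.32, 9.41 and 8.84 CPM in CI and at 10.8, 9.79 and 10.9 CPM in CD (log2 fold change 0.25, 95% interval -0.36 to 0.85). In CI its paralogue cldn11a exceeded it by a mean log2 ratio of 4.11 ± 0.42 (SD, n = 3), and in CD the ratio was -0.82 ± 0.45 (SD, n = 3). The claudin 11 transcripts of intact testes were thus nearly all from cldn11a, while in each dissociated library cldn11b was the more abundant of the pair.

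The paralogues cldn3d and cldn3c, which are next to each other in RefSeq's GRCz12tu annotation, changed places in the same way. Levels of cldn3c were 3.23, 7.95 and 7.56 CPM in CI and 8.92, 5.88 and 8.50 CPM in CD (log2 fold change 0.31, 95% interval -0.58 to 1.19). The log2 ratio of cldn3d to cldn3c was 2.13 ± 0.45 in CI and -3.34 ± 0.58 in CD (SD, n = 3 each). For cldn7a against cldn7b the ratio was 1.13 ± 0.81 in CI and -1.37 ± 0.65 in CD. In these 3 pairs the more abundant tag of the pair was a different one in every CI and every CD library.

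For jam2a against jam2b the ratio was 4.27 ± 0.71 in CI and 2.84 ± 1.06 in CD, and the libraries overlapped. Ratios were formed within each library, with 0.5 added to both counts, for all 11 pairs of tested genes that share a name stem, after the levels had been seen. The 3 pairs cldn11a and cldn11b, cldn3d and cldn3c, and cldn7a and cldn7b were the 3 of 11 whose groups did not overlap. Among all single rows 26.4% did not overlap either. The first gene of each of these 3 pairs had already been called lower, so the ratios repeat those calls. By an exact two-sided permutation test each had p = 0.1, the smallest that 3 libraries against 3 allow, and an adjusted p of 0.367 over the 11 pairs. Whether reads from near-identical paralogues were counted for the wrong copy was not tested.

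**Figure D2:**
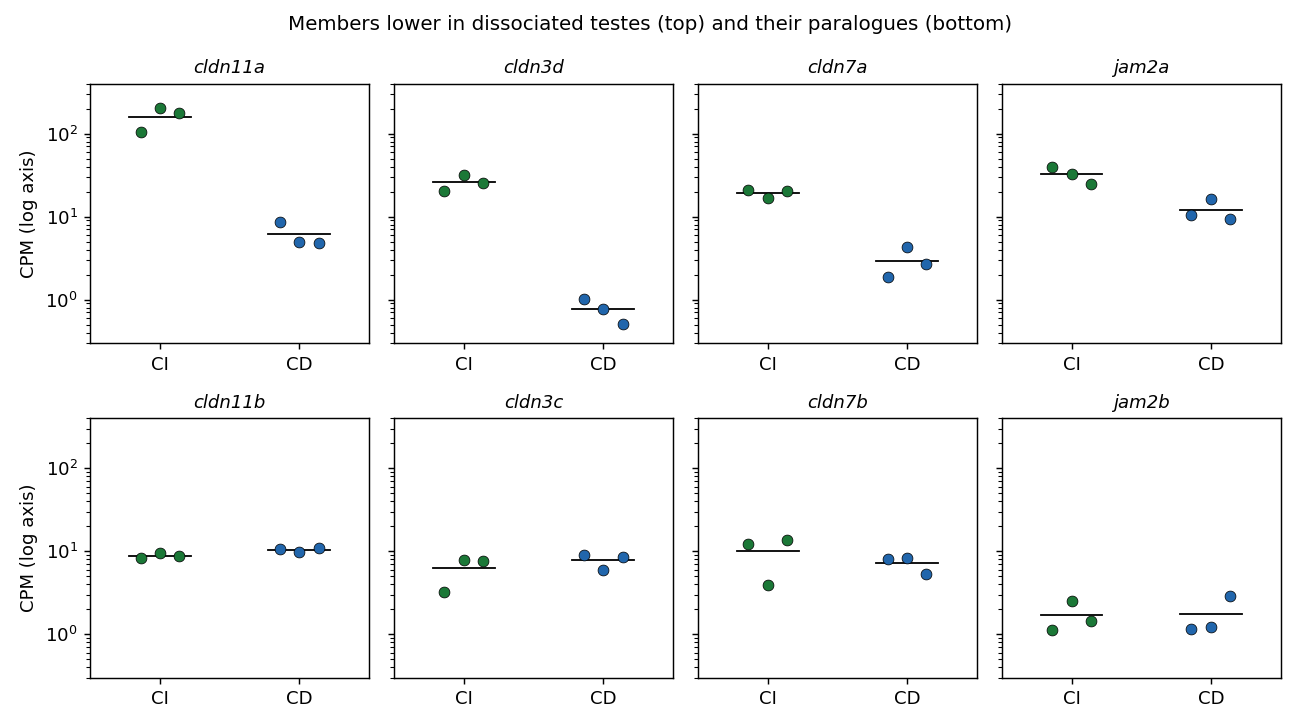
Levels (CPM, log axis) in each CI and CD library (points; horizontal line, mean) of the 4 genes called lower in CD (top) and a paralogue of each (bottom). All CI points of cldn11a lie at 104 CPM or above and all CD points at 8.71 CPM or below, while the points of cldn11b lie between 8.32 and 10.9 CPM in both groups.

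The remaining 34 tested genes were not called in CDxCI. Their log2 fold changes ran from -0.79 to 2.35. At an unadjusted p under 0.05, 5 of the 38 were higher, against 7.33% of all rows, and 4 were lower (10.5%, against 9.99% of all rows). The groups did not overlap for 10 of the 38 genes, 26.3%, and for 26.4% of all rows, which is the same share.

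The 5 that were higher without passing the adjusted test were 1 occludin, 1 scaffold and 3 claudins. Leaving out single libraries gave log2 fold changes of 0.74 to 1.30 for oclna, 0.87 to 1.81 for tjp3 and 2.01 to 2.61 for cldn2. Those of cldn5b were 0.70 to 1.16 and those of cldn12 0.45 to 0.63, both lowest without CI replicate 2. Of the 2 occludin genes, oclna was at 16.8, 7.68 and 19.1 CPM in CI and at 29.1, 25.7 and 35.4 CPM in CD (log2 fold change 1.04, SE 0.334, edgeR adjusted p = 0.15). The groups were apart, with CI replicate 2 the lowest library. The other occludin gene, oclnb, had a log2 fold change of 0.78 (95% interval -0.81 to 2.38), and CI replicate 2 was its highest library, at 6.09 CPM against 0.869 and 0.887 CPM in the other CI libraries. Without CI replicate 2 its log2 fold change was 2.29 (edgeR adjusted p = 0.0517).

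The scaffold gene tjp3, a relative of ZO-3, was at 3.60, 1.99 and 6.88 CPM in CI and at 11.7, 8.81 and 8.97 CPM in CD (log2 fold change 1.19, SE 0.437, edgeR adjusted p = 0.203). Its relative tjp2a was at 47.3, 11.8 and 49.3 CPM in CI and at 42.7, 43.3 and 34.5 CPM in CD, so that only CI replicate 2 stood away from the rest. Its log2 fold change was 0.15 (95% interval -0.84 to 1.13) and turned to -0.27 without that library.

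Claudin 5 is a claudin of blood vessel walls and, in mice, also of Sertoli cells. The level of cldn5b was 16.0, 8.48 and 10.9 CPM in CI and 24.2, 17.4 and 23.4 CPM in CD (log2 fold change 0.88, SE 0.303, edgeR adjusted p = 0.178). That of cldn5a overlapped between the groups (log2 fold change 0.01, 95% interval -1.18 to 1.20). The endothelial markers, 9 tested, had a median log2 fold change of -0.59 with 0 called by edgeR, and 2 were lower at an unadjusted p under 0.05.

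The transcript with the most counts in the family was cldn12, at 117, 93.9 and 122 CPM in CI and at 181, 149 and 160 CPM in CD (log2 fold change 0.56, SE 0.19, edgeR adjusted p = 0.172). Claudin 12 is an unusual claudin that lacks the tail by which most claudins bind the scaffolds. For cldn2, whose mammalian relative forms a cation pore, the CI libraries were at 0.124, 0.265 and 0.213 CPM and the CD libraries at 1.51, 1.02 and 0.641 CPM (log2 fold change 2.35, SE 0.953, edgeR adjusted p = 0.245). With 91 counts of cldn2 in the 6 libraries together, its 95% interval was wide (0.25 to 4.46).

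Of the other genes with at least 10 CPM on average, cldng, cldni, cldn15b and jam3b did not pass the test. For cldng the means were 13.7 ± 1.78 CPM in CD and 12.7 ± 3.82 in CI, for cldni 12.7 ± 0.568 and 17.4 ± 8.28, and for cldn15b, a relative of the intestinal claudin 15, 10.1 ± 1.26 and 12.0 ± 3.49 (SD, n = 3 each). The JAM gene jam3b, whose mouse relative is needed for sperm cells to mature, was at 17.2 ± 4.43 CPM in CD and 20.7 ± 3.86 in CI. The JAM-A relative f11r.1, with a mean under 10 CPM, did not pass it either (log2 fold change 0.68, edgeR adjusted p = 0.451) and was at 8.91 ± 3.98 and 5.49 ± 2.35 CPM. For these 5 genes the libraries of CD and CI overlapped.

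Another 6 genes had too few counts to be tested in CDxCI: cldn10a, cldn10b, cldn26, cldn33b, cldnd1b and f11r.2, with means of at most 0.434 CPM. Of these, cldn26 and cldn33b had counts in CI replicate 3 only, the deepest of the 6 libraries, at 7 and 4 counts. In TBxCB both had 0 counts in all 5 libraries, which allows levels of up to 0.0829 CPM in the deepest library and 0.621 CPM in the shallowest (3 counts; counting error only).

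Some markers of the somatic cells were also lower in CD. Of the 10 Sertoli cell markers tested, 3 were lower in CD and 0 higher (median log2 fold change -1.02), and all 12 together summed to 224 to 254 CPM in CD against 1410 to 2160 CPM in CI. The 3 were gsdf, a growth factor of Sertoli cells (8.16 to 17.0 CPM against 1170 to 1810 CPM, log2 fold change -6.83, edgeR adjusted p = 1.05e-05), amh, the anti-Müllerian hormone (-4.51, adjusted p = 0.000998), and fshr, the receptor for follicle-stimulating hormone (-3.65, adjusted p = 0.00112). Most of the sum was gsdf in CI and dmrt1 in CD. The level of dmrt1, which germ cells also express, was 202 to 217 CPM in CD and 154 to 289 CPM in CI (-0.09). The other 6 tested had log2 fold changes of -4.12 (inha), -1.82 (sox9a), -0.22 (wt1b), -0.09 (sox9b), 0.59 (wt1a) and 1.02 (igf3), and none of the 7 was called. None of the 12 Sertoli markers was at 0 in all libraries. The lower level of a gene in bulk libraries can come from fewer cells of a type or from less RNA per cell, and these cannot be told apart.

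Some markers of other somatic cell types were lower too, though not of every type. Leydig cell markers, the steroid-producing cells outside the tubules, were lower in 5 of 9 (44.3 to 233 CPM summed in CD, 3890 to 5610 in CI). Smooth muscle and fibroblast markers were lower in 3 of 10 (425 to 450 against 1280 to 2350 CPM), leukocyte markers in 5 of 13 (125 to 155 against 368 to 890 CPM) and markers of lining epithelium in 2 of 8 (830 to 913 against 1550 to 2470 CPM). In the last list the 2 were the simple epithelial keratins krt8 (log2 fold change -2.94, edgeR adjusted p = 0.000382) and krt18a.1 (-3.69, adjusted p = 0.000776). Of 9 endothelial and 3 erythrocyte markers tested 0 were called. The endothelial sums were 49.6 to 54.9 CPM in CD and 61.1 to 104 CPM in CI. The erythrocyte sums overlapped, at 50.2 to 64.0 CPM in CD and 42.8 to 105 CPM in CI. Germ cell lists went the other way or lay near 0, with medians of 0.39 for spermatogonial, 0.69 for spermatocyte (1 of 8 called higher) and 0.03 for spermatid and sperm markers. Which cells carried cldn11a, cldn3d, cldn7a and jam2a in the intact testis, and the part of cell loss in their change, was not tested.

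Genes of other cell junctions were measured in the same libraries. Summed levels of plaque and tricellular genes were 182 to 217 CPM in CD and 225 to 299 CPM in CI. Those of adherens junction and desmosome genes were 451 to 570 and 596 to 711 CPM. Gap junction genes summed to 97.8 to 113 and 167 to 250 CPM. The groups did not overlap for these lists, as was true of 26.4% of all single rows. Sums of polarity complex genes overlapped (212 to 226 and 221 to 240 CPM). Of 12 tested genes of the tight junction plaque and of tricellular contacts, 0 were called in either direction (median log2 fold change -0.43), with 5 lower and 1 higher at an unadjusted p under 0.05. Of 13 polarity complex genes 0 were called (median -0.02), with 1 lower and 1 higher at that threshold, and of 18 adherens junction and desmosome genes 0 were called (median -0.21), with 4 lower and 2 higher. Over all rows 9.99% were lower and 7.33% higher at that threshold. Of 17 gap junction genes 1 was lower: gja1b, the connexin 43 gene and in mammals the main connexin of Sertoli cells, with a mean level of 58.1 ± 2.08 CPM in CD against 150 ± 48.3 CPM for CI (SD, n = 3; log2 fold change -1.36, edgeR adjusted p = 0.0153).

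The dissociated controls of the older fish (CB) had levels of the same 4 genes that can be set beside CD and CI, though their table was scaled separately and no test was made. Levels of cldn11a were 35.5, 9.72 and 20.3 CPM in CB, between those of CD (at most 8.71 CPM) and CI (at least 104 CPM). For cldn3d they were 4.34, 1.91 and 2.60 CPM, and for cldn7a 6.79, 1.85 and 8.13 CPM. Here too CB lay below every CI library. For jam2a they were 15.4, 17.6 and 17.5 CPM, against 24.7 to 39.1 CPM in CI.

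TCDD-exposed and control testes were next compared within dissociated bulk-seq (TBxCB). Of the 37 genes tested 0 were called by edgeR, as were 0.0% of the 12939 rows. At an unadjusted p under 0.05 there was 1 gene of 37, against 8.88% of all rows, and DESeq2 called 11 rows, none of them a tight junction gene. The groups did not overlap for 11 of 37 genes (29.7%), beside 30.0% of all rows.

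The 1 gene with p under 0.05 was cldna, at 7.25, 6.86 and 8.57 CPM in CB and at 2.13 and 0.892 CPM in TB. Both TB libraries were below all CB libraries (log2 fold change -2.22, SE 0.564, edgeR adjusted p = 0.553). The next lowest fold change was that of cldn5b, at 15.5, 12.4 and 13.2 CPM in CB and at 9.62 and 2.01 CPM in TB (-1.17, adjusted p = 0.563). After it came tjp2a, at 50.2, 43.0 and 62.7 CPM in CB and at 43.8 and 8.92 CPM in TB (-0.95, adjusted p = 0.583). In both of these the shallower TB library was much the lower of the pair.

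The highest fold changes were those of cldn30 (log2 fold change 1.44, adjusted p = 0.564), cldn10b (1.41, adjusted p = 0.663) and cldn19 (1.18, adjusted p = 0.651), whose means stayed at or under 5.03 CPM in either group. In mammals claudin 10 and claudin 19 set the ion passage of kidney tubules. The genes lower in CD had TB values that overlapped CB: cldn11a at 21.8 and 10.0 CPM (-0.43, 95% interval -1.71 to 0.85), cldn3d at 3.23 and 2.90 CPM (0.07, -1.31 to 1.45), cldn7a at 5.91 and 4.02 CPM (-0.15, -1.63 to 1.34) and jam2a at 23.2 and 5.58 CPM (-0.19, -1.39 to 1.01). A log2 fold change of -1 lies inside all 4 of these intervals.

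Results of TBxCB turned on its exposed libraries. Leaving out either of them leaves 1 exposed library, so only effect sizes are given. Without the deeper TB library the log2 fold changes were -3.07 for cldna, -2.77 for cldn5b, -2.54 for tjp2a and -1.69 for cldn12. Without the shallower TB library they were -1.77 for cldna, -0.45 for cldn5b, -0.19 for tjp2a and 0.02 for cldn12. At 4828801 counts this library was also the shallowest by bulk-seq.

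Marker lists of other cells were read in TBxCB too, and edgeR called 0 genes of any list. The summed markers of lining epithelium were 2130 to 2540 CPM in TB and 1440 to 1680 CPM in CB, with fold changes above 0 in 8 of 8 tested (median log2 0.55, 1 higher at an unadjusted p under 0.05). Those of smooth muscle and fibroblasts were 952 to 1190 CPM and 707 to 873 CPM, with 11 of 11 above 0 (median 0.68, 2 higher at that threshold). Spermatogonial markers summed to 1960 to 2080 CPM in TB and 2450 to 3320 CPM in CB (median -0.06, 1 lower at that threshold). The median over all rows was -0.05. In these lists, and in that of erythrocyte markers (40.8 to 61.4 and 27.8 to 40.6 CPM), the sums of TB and CB did not overlap. Groups did not overlap for 30.0% of all single rows either. Sums of Sertoli cell markers overlapped (192 to 238 and 192 to 305 CPM). So did those of Leydig cell, endothelial, leukocyte, spermatocyte, and spermatid and sperm markers. The part of these cell types in the values of the tight junction genes was not tested.

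**Figure D3:**
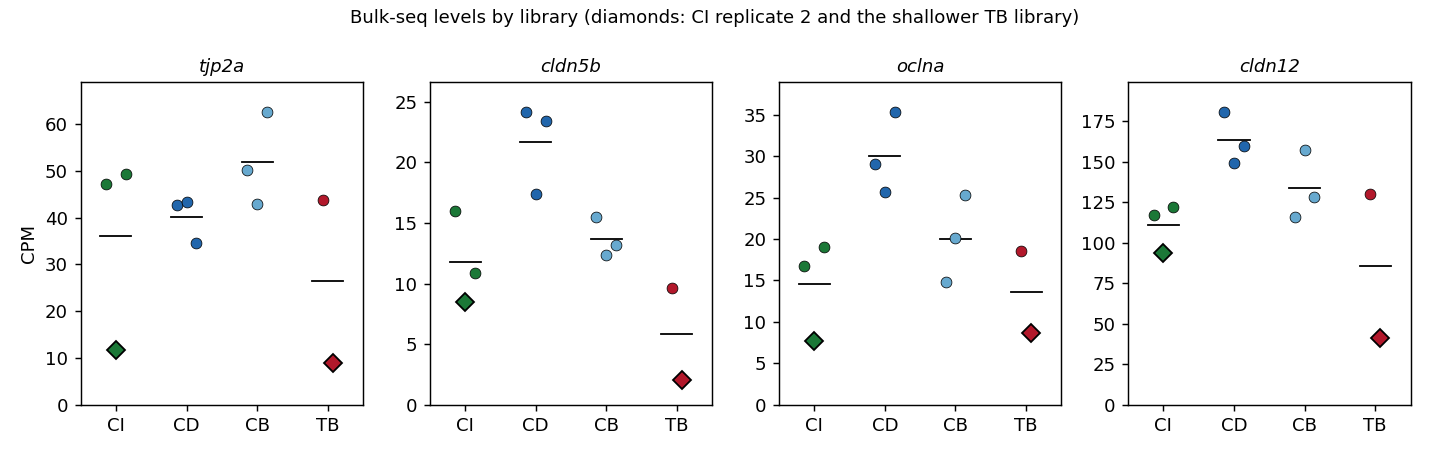
Levels (CPM, linear axis) of 4 tight junction genes in each bulk-seq library (points and diamonds; horizontal line, group mean); CI and CD were scaled in one table, CB and TB in another. For tjp2a, CI replicate 2 at 11.8 CPM and the shallower TB library at 8.92 CPM (diamonds) lie below the other libraries, which run from 34.5 to 62.7 CPM.

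The same exposure comparison was made by pseudo bulk-seq (TPxCP), where counts of all cells of a sample were summed. The 9 tight junction genes with a row there were all tested, and 3 were called: cldn12 higher in TP, and cldng and cldna lower. Over the 6847 rows 28.1% were called, 8.69% higher and 19.4% lower, so 3 of 9 was near the share of all rows. The genes cldn11a, cldn3d, cldn7a and jam2a have no row in this table. It held 6847 rows, against 14792 in each bulk-seq table, and all 6847 passed the filter on low counts. A gene or marker without a row there can thus not be read as absent from the cells.

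Levels of cldn12 were 55.9, 71.9 and 77.6 CPM in CP and 110 and 115 CPM in TP (log2 fold change 0.72, SE 0.192, edgeR adjusted p = 0.032). Those of cldng were 14.9, 19.8 and 16.8 CPM in CP and 7.71 and 9.45 CPM in TP (-1.01, SE 0.222, adjusted p = 0.0173). Those of cldna were 15.2, 21.6 and 20.9 CPM in CP and 8.79 and 12.6 CPM in TP (-0.85, SE 0.254, adjusted p = 0.0448). In all 3 the groups did not overlap, as was true of 65.0% of all rows.

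Leaving out either TP sample leaves 1 exposed sample, so only effect sizes are given for those fits. How far the 3 calls rest on either TP sample can thus not be told. Without CP replicate 3 the call of cldn12 was lost (edgeR adjusted p = 0.0651). That of cldna was lost without CP replicate 2 (0.0588) or CP replicate 3 (0.116), and that of cldng was not lost without any CP sample. Each log2 fold change kept its sign throughout, from 0.60 to 0.82 for cldn12, from -1.14 to -0.87 for cldng and from -1.12 to -0.62 for cldna. The call of cldn12 and that of cldna were also lost at the thresholds of the study (an unadjusted p under 0.01 with at least a 2-fold difference), by which 15.2% of all rows were called.

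The other 6 genes were not called in TPxCP. The JAM genes jam3a (21.1, 20.5 and 18.3 CPM in CP, 15.1 and 13.9 CPM in TP) and jam3b (33.7, 30.4 and 35.1 CPM in CP, 27.1 and 29.7 CPM in TP) had no overlap between the groups, with log2 fold changes of -0.46 (edgeR adjusted p = 0.1) and -0.21 (adjusted p = 0.388). Levels of f11r.1 overlapped, at 77.2 to 92.9 CPM in CP and 71.4 and 77.5 CPM in TP (-0.18, 95% interval -0.59 to 0.22). For cldn5b the log2 fold change was -0.69 (adjusted p = 0.174), and without CP replicate 2 it was called lower (-0.97, adjusted p = 0.0309). Those of cldn11b (0.49, 95% interval -0.37 to 1.34) and oclna (0.19, -0.69 to 1.06) had intervals that include 0.

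**Figure D4:**
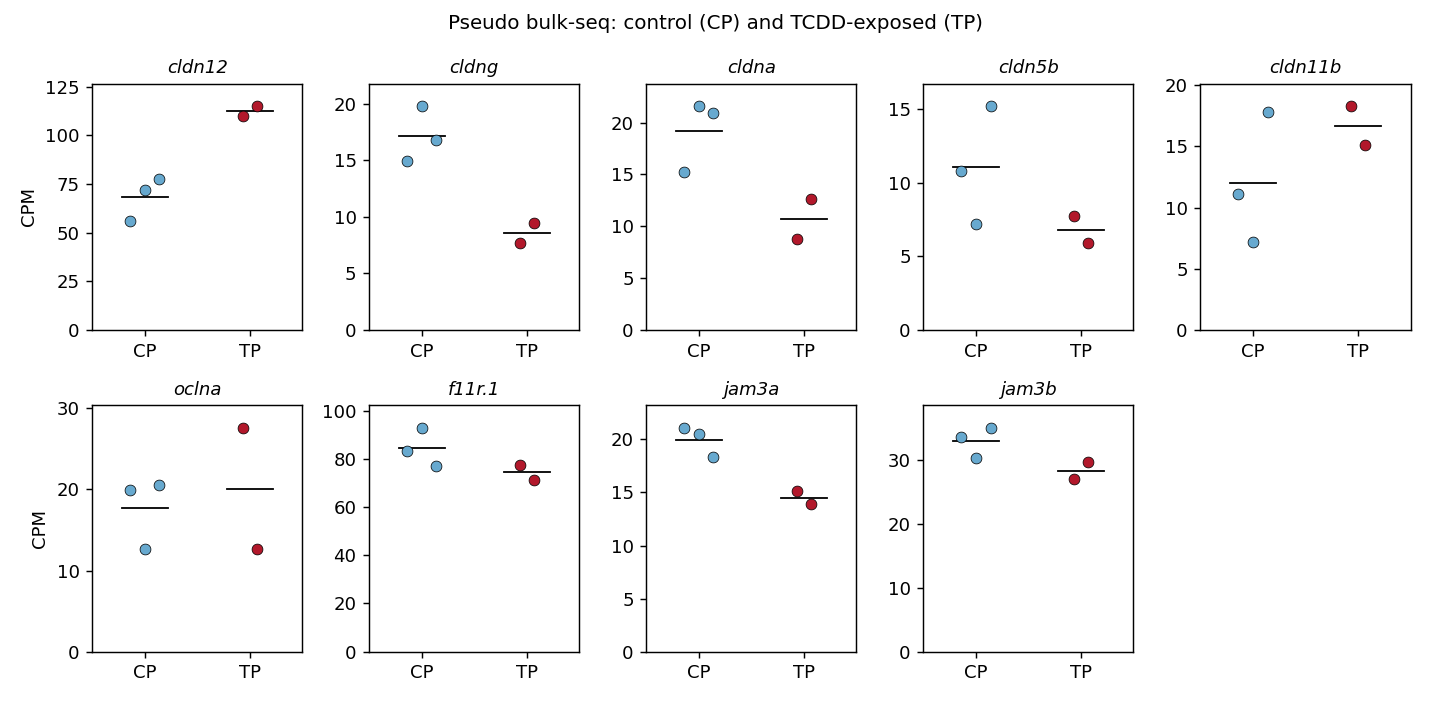
Levels (CPM, linear axis) of the 9 tight junction genes in each pseudo bulk-seq sample (points; horizontal line, mean) of 3 control (CP) and 2 TCDD-exposed (TP) suspensions. The TP points lie above all CP points for cldn12 and below them for cldng, cldna, jam3a and jam3b.

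Some germ cell markers also differed between TP and CP. All 5 spermatid and sperm markers tested in TPxCP were lower in TP (median log2 fold change -3.61; 139 to 192 CPM summed in TP, 1440 to 2620 in CP), and so were 4 of 9 spermatocyte markers (median -0.47). The 2 spermatogonial markers, piwil1 and sall4, had log2 fold changes of 0.50 and 0.51 and were not called. Sertoli cell markers could hardly be read, since dmrt1, which germ cells of the testis also express, was the 1 with a row (0.43, edgeR adjusted p = 0.0739), and Leydig, endothelial and lining epithelium markers had none. Of 3 leukocyte markers cd74b was lower (-1.11, edgeR adjusted p = 0.0124), and the 3 summed to 53.9 to 58.0 CPM in TP and 66.7 to 90.1 CPM in CP. The part of the cell makeup in the changes of cldn12, cldng and cldna was not tested.

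Of 4 plaque genes tested in TPxCP, cxadr, a junctional immunoglobulin-like protein, was lower (44.2 ± 9.64 CPM in CP, n = 3, and 19.8 ± 3.22 CPM in TP, n = 2; log2 fold change -1.15, edgeR adjusted p = 0.0176) and tjap1 was higher (0.74, adjusted p = 0.029). Of 2 gap junction genes gjc4b, a connexin gene, was higher (0.90, adjusted p = 0.0293). Over all rows of TPxCP 28.1% were called, 8.69% higher and 19.4% lower, and these lists hold few genes. Of 8 adherens junction and desmosome genes and 3 polarity complex genes 0 were called, with 1 of the first lower and 1 of the second higher at an unadjusted p under 0.05.

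TB and TP held cells of the same suspensions, so both comparisons share their fish. For the 8 genes in both tables the log2 fold changes in TBxCB and TPxCP were -0.63 and 0.72 for cldn12, -2.22 and -0.85 for cldna, -0.60 and -1.01 for cldng, and -1.17 and -0.69 for cldn5b. They were -0.35 and 0.49 for cldn11b, -0.37 and -0.18 for f11r.1, -0.16 and -0.21 for jam3b, and -0.53 and 0.19 for oclna. The difference between the methods was not tested for any of these 8 genes. Without the shallower TB library the TBxCB values were 0.02 for cldn12, -1.77 for cldna and -0.45 for cldn5b. That of oclna ran from -1.21 to -0.05 when single libraries were left out. The level of f11r.1 was 7.14 to 11.4 CPM by bulk-seq and 71.4 to 92.9 CPM by pseudo bulk-seq of these suspensions, in tables made by separate pipelines.

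The single cell data also gave, for 10 clusters of cells, the percent of cells in which a listed transcript was detected. The columns were read as inside the cluster and in all other cells. Clusters are called here by number, no name being given to them, and samples of both exposures were merged in them. Listing depended on the authors' own selection, so a gene without an entry cannot be read as absent, and the depth per cell was not used here. Of the tight junction genes 4 were listed for at least 1 cluster: cldn12, cldn5b, f11r.1 and oclna.

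For cldn12 the share was 43.1% of cells in cluster 2 and 45.1% in cluster 3, and 1.7%, 1.5% and 0.5% in clusters 8, 9 and 10. In clusters 2 and 3 piwil1, a piRNA pathway gene of early germ cells, was detected in 95.8% and 95.6% of cells, and ropn1l, a gene of the sperm tail, in 9.3% and 6.4%. Meiotic genes were detected there too: dmc1 in 32.9% and 58.4% of cells, against 52.5% and 46.9% of all other cells. The share of sycp1 was lower there than in all other cells, at 17.6% and 18.2% against 69.0% and 64.1%. For sycp3 it was 91.5% in cluster 2, against 68.5%. In clusters 8 to 10 ropn1l was detected in 95.1% to 98.9% of cells, sycp1 in 98.6% to 99.4% and piwil1 in 11.9% to 32.1%. Among these 5 clusters the 2 with the higher share of piwil1 had the higher share of cldn12. The other 5 clusters have no entry for cldn12, cluster 1 with piwil1 in 98.8% of cells and cluster 7 with ropn1l in 93.1% included.

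The other 3 genes had other patterns. For oclna the share was 16.2% in cluster 4 and 14.2% in cluster 5, against 4.9% and 5.7% of all other cells. The meiotic recombinase gene dmc1 was detected in 93.1% of cells of cluster 5 and had no entry for cluster 4. In clusters 4 and 5 rec8b was detected in 57.2% and 76.5% of cells, against 34.0% and 33.1% of all other cells. For sycp3 the shares were 95.8% and 99.9%, against 69.6% and 70.5%. Those of sycp1 lay on opposite sides, at 26.6% against 63.4% for cluster 4 and 81.9% against 55.6% for cluster 5. In cluster 6, with dmc1 in 89.2% of cells, oclna had no entry. For f11r.1 the share was 36.0% in cluster 7, against 22.6% of all other cells, and 0.5% in cluster 10, against 24.7%. The sperm tail gene ropn1l was detected in most cells of both clusters (93.1% and 95.7%). For cldn5b the share was 11.9% in cluster 8 against 3.2% of all other cells. Clusters were made from these same transcripts, so the shares are descriptions without a test.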

How the data were processed

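Counts were taken as the authors deposited them, as unnormalised whole numbers per RefSeq accession. For bulk-seq they came from QuantSeq 3′ libraries aligned to GRCz11 on the BlueBee platform. For pseudo bulk-seq they came from 10x libraries processed with Cell Ranger and Seurat (version 4.0.4), keeping cells with at least 500 features. About 5000 cells were loaded per sample. How doublets were treated is not given in the sources used here. Cluster tables gave, per the file headers, the fraction of cells with a transcript. Columns of TBxCB name the group but no single bulk-seq sample. The authors' own fold changes and p-values in the files, and 2 tables that set pseudo bulk-seq against bulk-seq, were not used. Accessions of TBxCB ran in the opposite order to its counts and were reversed: the log2 difference of the shallower TB from the shallowest CB library then correlated across rows with that of CI replicate 2 from CI replicate 1 at r = 0.474, against 0.045 and 0.025 when shifted by 1 row. Symbols came from RefSeq (97.6%, 97.6% and 85.2% of rows matched in CDxCI, TBxCB and TPxCP).

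Each comparison was fitted on its whole table by edgeR 4.0.16 (TMM, filterByExpr, robust quasi-likelihood, no covariates, Benjamini-Hochberg over all rows, R 4.3.3). The fit was also run on simulated counts with the same spread for every gene and no library standing apart. That setting differs from these data, so it cannot show how often calls made here are right. SE is the log2 fold change over the root of its F statistic, and 95% intervals used the degrees of freedom of that test. Exact permutation tests used SciPy. No 2 replicates agreed within sampling noise (chi-square per row 13.4 to 137). Alternatives were DESeq2 1.42.0, its size factors, no filter, 10 counts in as many libraries as the smaller group, the thresholds of the study, the replicate number as a block, and leaving out each library. Members and lists were chosen with earlier results of these data known. Named were genes called in any comparison, those at 10 CPM or more on average in CDxCI, the 3 highest and 3 lowest fold changes of each comparison, and relatives of mammalian Sertoli barrier genes. The files do not say which fish each replicate number stands for, so that p-values measure the spread between these samples.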

Additional observations from a re-analysis of the deposited data

How the results depend on the processing

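Of the 4 tight junction genes lower in CDxCI, cldn11a, cldn3d and cldn7a were called under every alternative run and jam2a under all that kept 6 libraries. Rows called in CDxCI numbered 283, 780 by DESeq2, 612 at the thresholds of the study, and 105 to 333 when single libraries were left out (tight junction genes lower, 3 to 4). In TBxCB rows called numbered 0, 11 by DESeq2, 168 at the thresholds of the study (1 tight junction gene lower, cldna) and 0 to 698 without single libraries (0 to 4 lower). In TPxCP rows called numbered 1926, 1038 at the thresholds of the study (0 tight junction genes higher, 1 lower), and 397 to 2853 without single libraries (0 to 1 higher, 0 to 2 lower). Without a library the arm left with 1 sample was assumed to vary like the other. The cause of these shifts was not tested.

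With the replicate number as a block, rows called were 367 in CDxCI and 2479 in TPxCP, and in TPxCP 2 tight junction genes were higher, the second being cldn11b (log2 fold change 0.91, edgeR adjusted p = 0.00801). In CDxCI same-numbered libraries did not deviate together throughout (r = 0.261, 0.041 and -0.059). In TPxCP both r were above 0 (0.258 and 0.416), but deviations of 2 TP samples mirror each other, so these are not separate checks. No source ties the numbers to the successive exposure blocks of the study, so they were not taken as pairs. No paired analysis was possible for TBxCB because its columns carry no replicate number of the labels.

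Alternatives were run for the genes named in the text. Of these, uncalled genes that changed sign without a single library were, in CDxCI, cldn15b (-0.39 to 0.02), cldn5a (-0.45 to 0.38), cldng (-0.08 to 0.34), jam2b (-0.49 to 0.44) and tjp2a (-0.27 to 0.44). In TBxCB they were cldn10b (-0.40 to 2.15), cldn11a (-1.12 to 0.10), cldn11b (-0.91 to 0.07), cldn12 (-1.69 to 0.02), cldn3d (-0.13 to 0.45), cldn5a (-0.16 to 0.30), cldn7a (-0.52 to 0.23), jam2a (-1.59 to 0.52), jam2b (-0.57 to 1.20), jam3b (-0.41 to 0.49) and oclnb (-0.05 to 0.94). In TPxCP it was oclna (-0.46 to 0.68). Each of the 9 tight junction genes tested in CDxCI with a mean under 2 CPM had a 95% interval wider than 2 log2 units.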

Other observations

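CI replicate 2 and the shallower TB library, of different tables, ages and exposures, were read side by side after the values had been examined. Of the 42 tight junction genes with counts in both tables, 17 were lower in CI replicate 2 than in both other CI libraries (40.5%, against 37.9% of all 14003 such rows) and 19 were higher (45.2%, against 38.1%). In the shallower TB library 13 were lower than in the 4 other libraries of TBxCB (31.0%, against 32.8%) and 9 were higher (21.4%, against 27.4%). The genes low in both numbered 6 (14.3%, against 21.0% of all rows), as did those high in both (14.3%, against 17.2%), so neither share was above that of all rows. Among those low in both were tjp2a (11.8 CPM against 47.3 and 49.3, and 8.92 CPM against 43.0 to 62.7), oclna (7.68 against 16.8 and 19.1, and 8.70 against 14.8 to 25.3), cldn5b (8.48 against 10.9 and 16.0, and 2.01 against 9.62 to 15.5) and cldn12 (93.9 against 117 and 122, and 41.3 against 116 to 157). Among those high in both was cldn1, at 17.8 CPM in the shallower TB library against 5.43 to 7.92 CPM in the rest of its table, and at 5.96 CPM in CI replicate 2 against 5.46 and 2.80 CPM.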
